A study of Danio rerio with 7 samples.

Results

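The early blood progenitor genes described here are 10 genes followed in gata1-positive erythroid cells of zebrafish embryos: the transcription factor genes myb, runx1, gata2a, gata2b, fli1a, meis1b, cebpa, hhex and drl, and the receptor gene kita. They are defined by their names rather than by a measured value, and each of the 10 names matched 1 row of the 32105 genes in the count table. Some of these rows carry a human-style symbol in capitals, and MYB, KIT, RUNX1, GATA2, FLI1, MEIS1 and CEBPA were read as myb, kita, runx1, gata2a, fli1a, meis1b and cebpa. The series holds polyadenylated RNA from 3 libraries of ddx41 mutants (replicates 2, 3 and 4) and 4 libraries of their siblings (replicates 1, 3, 4 and 5), all taken at 40 hours post fertilization. The gene ddx41 encodes a DEAD-box RNA helicase, and gata1 encodes a red cell transcription factor. The labels give no allele, no genotype for the siblings beyond that name, no number of embryos per library and no clutch, and each p-value reflects spread between libraries that may be technical.

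Red cells arise in steps. Haemangioblast and endothelial factors such as fli1a, hhex, gata2a and drl come first in lateral mesoderm, runx1, gata2b and myb mark the emergence and upkeep of blood stem and progenitor cells, and meis1b, kita and cebpa act in stem cells, in growth factor signalling and in the myeloid branch. Maturing erythroid cells are known to lose most of these transcripts while gata1, the globin genes and the haem enzymes rise, and the exchange of GATA2 for GATA1 on shared DNA sites is called the GATA switch. Several of the 10 genes are also used outside blood: fli1a and hhex in endothelium, hhex in liver and pancreas, meis1b and gata2a in neurons, and kita in pigment cells.

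The libraries held 11814324 to 14363255 counts, and 18565 genes passed the filter on low counts, the 10 genes among them. The 14 rows of red cell markers, which include the globin row hbae3, klf17 and alas2, summed to 31300 to 58950 CPM in mutants and 71070 to 93220 CPM in siblings. They were thus present in all 7 libraries of cells labelled erythroid, at a lower sum in every mutant. Of these rows 1 was higher and 2 were lower in mutants, and 1 was lower without sibling replicate 1, 3 or 4. The number lower was 3 without ddx41 mutant replicate 3 and by DESeq2, and 4 by limma-voom. The globin symbols hbbe1.1 and hbbe2 of that list matched no row and are not in the sum. CPM are counts scaled to a common library size, with TMM factors.

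The comparison of ddx41 mutants with siblings asked whether progenitor transcripts differ in erythroid cells isolated from mutant embryos. Only 1 of the 10 genes, hhex, passed edgeR's quasi-likelihood test with Benjamini-Hochberg adjustment at 0.05 over all 18565 tested genes. It was higher in the mutants, and none of the 10 was called lower. Over all tested genes 16.6% were called, 8.87% higher and 7.69% lower, so 1 of 10 is no larger a share than the background. The counts given below for each list are to be read beside these shares. At an unadjusted p under 0.05 in the edgeR fit, 3 of the 10 passed (hhex and fli1a higher, drl lower), against 29.8% of all genes in either direction and 13.9% in the lower direction. DESeq2 and limma-voom also called hhex and no other of the 10. The library values of the groups did not overlap for 2 of the 10, myb and hhex, both above the siblings. Such separation held for 27.5% of all tested genes, with the mutants above for 14.6%. With ddx41 mutant replicate 2 left out none was called higher, and with ddx41 mutant replicate 3 or sibling replicate 3 left out 2 were. A single gene was called lower when ddx41 mutant replicate 3 (drl) or 4 (cebpa) was left out.

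**Figure D1:**
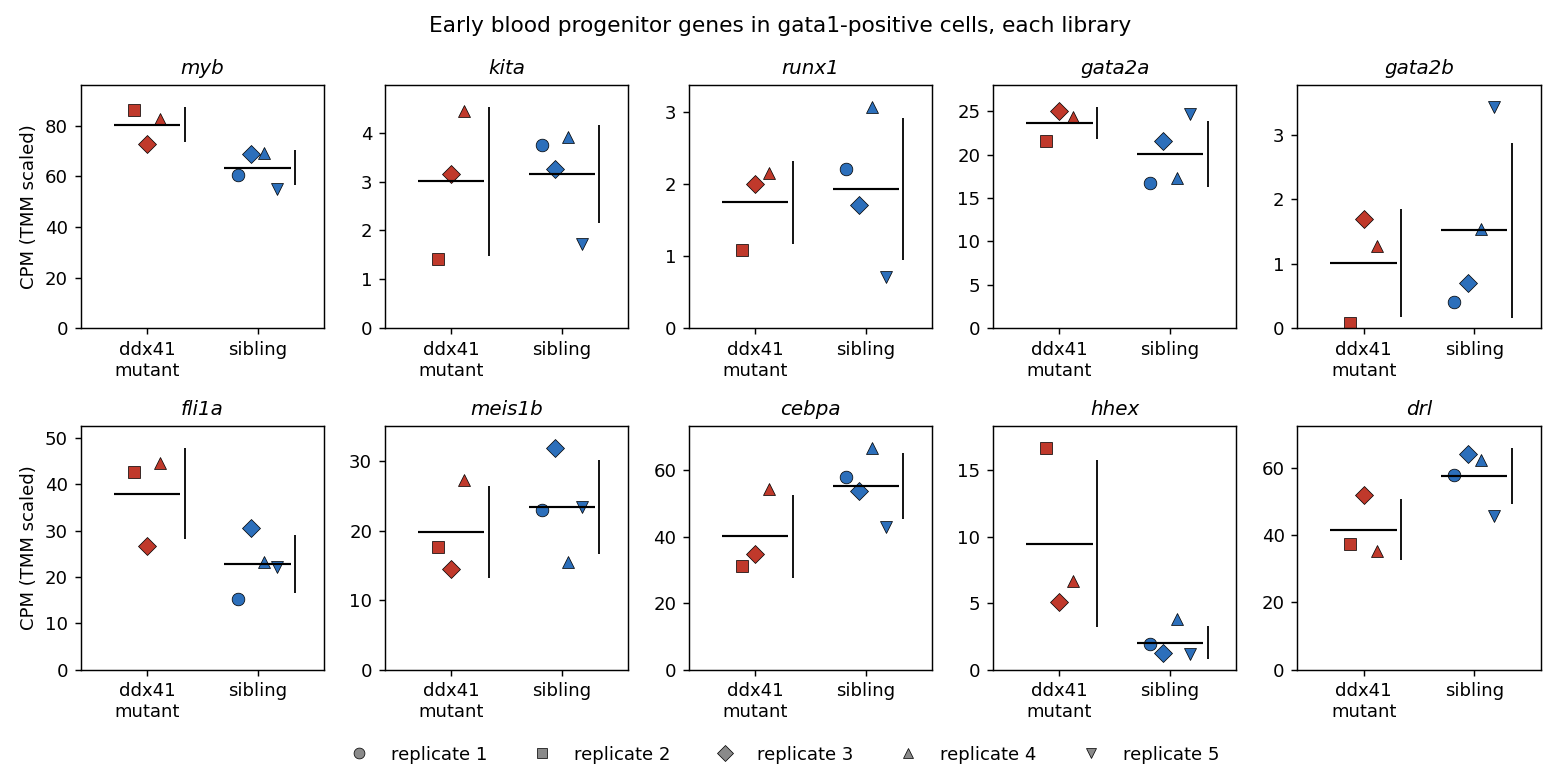
CPM (TMM scaled, linear axis from 0) of the 10 genes in each library, with ddx41 mutants (red, n = 3) left of siblings (blue, n = 4); marker shapes give the replicate number, horizontal lines the group mean and vertical lines ± 1 SD. The groups separate for hhex and myb and overlap for the other 8 genes.

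The homeobox gene hhex had 16.7, 5.07 and 6.66 CPM in ddx41 mutant replicates 2, 3 and 4, against 1.94, 1.24, 3.84 and 1.14 CPM in sibling replicates 1, 3, 4 and 5. Further values follow in this library order. Every mutant library lay above every sibling library, and ddx41 mutant replicate 2 stood well above the other mutants. These values rest on 200, 66 and 105 counts in the mutants and on 16 to 50 counts in the siblings. The exact 95% Poisson interval of the lowest mutant library, 3.92 to 6.45 CPM, overlapped that of the highest sibling library, 2.85 to 5.06 CPM; such intervals cover counting error only. The means were 9.46 ± 6.28 CPM in mutants (SD, n = 3) and 2.04 ± 1.25 CPM in siblings (SD, n = 4). The fitted rise was 4.62-fold, a log2 fold change of 2.21 (SE 0.51, 95% interval 1.12 to 3.30, edgeR adjusted p = 0.00847). Leaving out mutant replicate 2 gave a log2 fold change of 1.52 and an edgeR adjusted p of 0.106. Across 18 alternatives the adjusted p ranged from 0.000452 (DESeq2) to 0.258 (edgeR with the replicate number as a block).

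Markers of the other cells known for hhex were read beside it. Of 21 tested endothelial IDs, 3 were higher and none lower in the mutants, and 1 was higher without ddx41 mutant replicate 2; no ID of the list was at 0 in all libraries. At an unadjusted p under 0.05, 7 endothelial IDs were higher and 2 lower in the edgeR fit; DESeq2 called 4 higher and limma-voom 2 higher, and neither called one lower. The scavenger receptor gene stab2 had 72.4, 39.5 and 79.1 CPM in mutants, against 4.22, 10.9, 4.76 and 9.49 CPM in siblings. The vessel gene EGFL7 had 12.8, 3.53 and 6.03 CPM in mutants and 0.623, 1.86, 1.69 and 2.86 CPM in siblings. As with hhex, ddx41 mutant replicate 2 held the highest EGFL7 level. Among siblings EGFL7 was highest in replicate 5 and hhex in replicate 4. The 2 IDs lower at an unadjusted p were stab1 and vwf, and for both every mutant lay below every sibling. The stab1 gene had 26.6, 15.2 and 28.8 CPM in mutants and 33.8, 32.9, 33.4 and 41.9 CPM in siblings. Neither stab1 nor vwf passed (edgeR adjusted p = 0.109 and 0.132). The 3 called IDs, stab2, EGFL7 and plvapb, were all higher, and the uncalled IDs had no common direction. The summed level of the 22 endothelial IDs was 526.4 to 680.3 CPM in mutants and 462.3 to 526.0 CPM in siblings, most of it from one aquaporin row, AQP1 (ENSDARG00000023713). Without that row, a choice made after seeing the data, the sum was 207.8, 118.5 and 256.6 CPM in mutants and 99.1 to 144.8 CPM in siblings, and the groups overlapped. In the list of liver, yolk and foregut endoderm 1 of 11 tested IDs was higher and 2 were lower, and no ID was at 0 in all libraries. The higher one, the liver fatty acid binding gene fabp10a, had 3.17, 1.31 and 1.14 CPM in mutants and 0 to 0.357 CPM in siblings. Its direction was opposite to that of the 2 called lower, so the called IDs of this list had no common direction. The sum of that list was 39.1 to 75.2 CPM in mutants and 40.8 to 71.7 CPM in siblings. With ddx41 mutant replicate 2 left out none of the list was higher, and 1 was lower with that library, ddx41 mutant replicate 3 or sibling replicate 1 left out. The part of these cells in the hhex level was not tested. In bulk samples fewer or more cells of a type and a different amount of RNA per cell cannot be told apart.

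The ETS factor gene fli1a, active in endothelium and blood progenitors, had 42.6, 26.6 and 44.6 CPM in mutants and 15.2, 30.6, 23.2 and 22.1 CPM in siblings. The groups overlapped through a single pair of libraries, ddx41 mutant replicate 3 and sibling replicate 3. The means were 37.9 ± 9.84 CPM in mutants (SD, n = 3) and 22.8 ± 6.32 CPM in siblings (SD, n = 4). The log2 fold change was 0.74 (SE 0.26, 95% interval 0.19 to 1.29) and missed the threshold, with an edgeR adjusted p of 0.0649. Leaving out mutant replicate 3, the edgeR adjusted p was 0.0321 and without sibling replicate 3 it was 0.0426, within a range of 0.0321 to 0.7345 over the alternatives.

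Among 9 tested genes of other ETS factors, 3 were higher and none lower, against 8.87% higher and 7.69% lower over all tested genes. Their median log2 fold change was 0.69 against 0.04 over all tested genes. ELF2 (ENSDARG00000079626) rose 2.03-fold, to 143.6 ± 26.9 CPM in mutants (SD, n = 3), against 70.9 ± 10.5 CPM in siblings (SD, n = 4; edgeR adjusted p = 0.00269). SPI1 (ENSDARG00000000767), a row for the myeloid master regulator PU.1, rose 1.77-fold to 97.9 ± 31.3 CPM in mutants, against 55.2 ± 6.35 CPM in siblings (edgeR adjusted p = 0.0161). Its highest value was in ddx41 mutant replicate 4, at 134.0 CPM, and without that library the edgeR adjusted p was 0.0735, within leave-one-out values that also missed the threshold without sibling replicate 3 (0.0502) and 5 (0.0516). The other PU.1 gene of the list, spi1a, had 25.7, 23.3 and 31.5 CPM in mutants and 32.2, 47.9, 40.9 and 38.1 CPM in siblings. Every mutant lay below every sibling, the opposite order to SPI1, and spi1a did not pass (log2 fold change -0.57, edgeR adjusted p = 0.0832). The remaining called gene was elf1, 1.80-fold higher. ERG, an endothelial relative of fli1a, had 7.58, 5.60 and 8.50 CPM in mutants and 3.60, 6.28, 4.22 and 3.78 CPM in siblings, and did not pass. As for fli1a, ddx41 mutant replicate 3 was the lowest mutant library and sibling replicate 3 the highest sibling library. The number of ETS genes called higher was 1 without ddx41 mutant replicate 4 or sibling replicate 3, and 1 was called lower without ddx41 mutant replicate 2 or sibling replicate 4 or 5, by DESeq2 and by limma-voom. At an unadjusted p under 0.05 in the edgeR fit, 2 ETS genes were lower.

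The stem cell regulator myb had 86.0, 72.6 and 82.6 CPM in mutants and 60.7, 68.9, 69.1 and 55.2 CPM in siblings. All 3 mutant libraries lay above all 4 sibling libraries, the nearest being ddx41 mutant replicate 3 and sibling replicate 4. The means were 80.4 ± 6.94 CPM in mutants (SD, n = 3) and 63.5 ± 6.78 CPM in siblings (SD, n = 4). The difference was small, with a log2 fold change of 0.34 (SE 0.18, 95% interval -0.04 to 0.72), and did not pass the test (edgeR adjusted p = 0.220). The spread between libraries was narrow, 8.63% of the mean in mutants and 10.7% in siblings, where counting alone would give 3.03% and 3.41%. None of 6 tested rows of the MYB family and the coactivators CREBBP and EP300 passed edgeR's test in either direction, none had an unadjusted p under 0.05, and DESeq2 and limma-voom called none. The median log2 fold change of these 6 was -0.06, and MYBL2 (ENSDARG00000032264), a cell cycle relative of myb, had 168.5 ± 58.4 CPM in mutants and 127.9 ± 11.9 CPM in siblings.

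**Figure D2:**
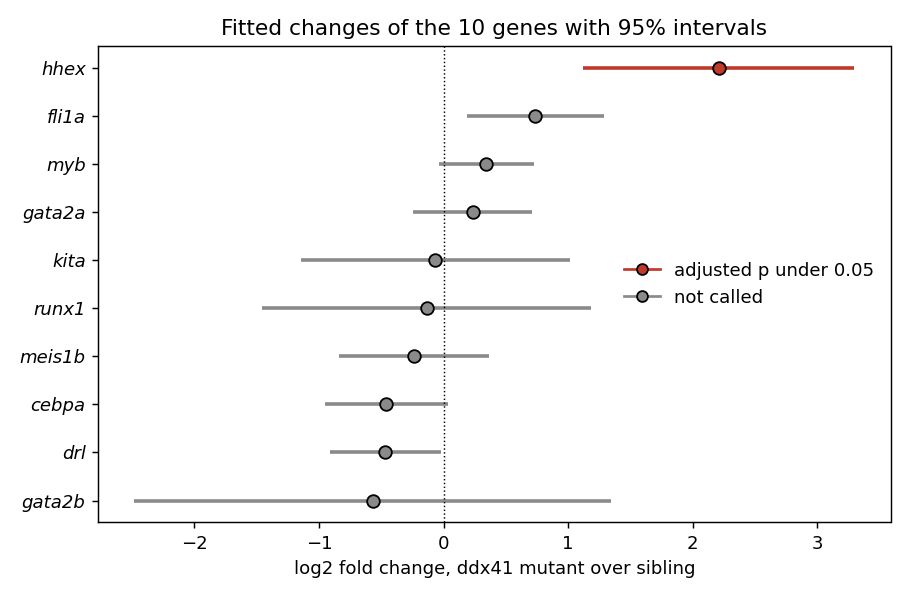
Fitted log2 fold change (ddx41 mutant over sibling) of each of the 10 genes with its 95% interval; red marks an edgeR adjusted p under 0.05 and grey a gene not called. The interval of hhex runs from 1.12 to 3.30, and the intervals of kita, runx1 and gata2b reach past 1 log2 unit in both directions.

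Zebrafish carry a pair of GATA2 genes, and gata2a was counted far more deeply than gata2b. For gata2a the libraries had 21.6, 25.03 and 24.3 CPM in mutants and 16.7, 21.5, 17.3 and 24.7 CPM in siblings. These ranges overlapped, and the log2 fold change was 0.24 (SE 0.22, 95% interval -0.24 to 0.71, edgeR adjusted p = 0.526). For gata2b the libraries held only 1, 22 and 20 counts in mutants and 6, 9, 20 and 48 counts in siblings. That is 0.0833, 1.69 and 1.27 CPM in mutants and 0.415, 0.698, 1.53 and 3.43 CPM in siblings. The lowest value was in ddx41 mutant replicate 2 and the highest in sibling replicate 5, so gata2b varied widely within both groups. Its spread was 82.1% of the mean in mutants and 89.4% in siblings, where counting alone would give 26.4% and 22.0%. The 95% interval of its log2 fold change ran from -2.48 to 1.34, which includes a fold change of more than 2 in either direction (edgeR adjusted p = 0.721).

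Each gene was also set against the gata1a counts of its own library, a ratio that needs no scaling and was added after the data were seen. The gata1a transcript itself had 498.5, 624.4 and 269.6 CPM in mutants and 671.5, 754.3, 738.3 and 445.6 CPM in siblings (edgeR adjusted p = 0.242). It was lowest in ddx41 mutant replicate 4 and, among siblings, in replicate 5. Its mean was 464.1 CPM in mutants and 652.4 CPM in siblings, so for every gene the ratio tends to set mutants higher than CPM does. Per 1000 gata1a counts there were 43.3, 40.1 and 90.2 gata2a counts in mutants and 24.9, 28.6, 23.5 and 55.4 in siblings. The ratio was highest in the library with the least gata1a of each group, and the groups overlapped through sibling replicate 5. For myb the ratio was 172.5, 116.3 and 306.3 in mutants and 90.3, 91.3, 93.6 and 123.8 in siblings, with the same pair of libraries on top, and the groups, apart by CPM, overlapped. For hhex it was 33.4, 8.12 and 24.7 in mutants and 2.89, 1.64, 5.20 and 2.56 in siblings, and the groups did not overlap. They overlapped for the other 9 genes. The means of kita, runx1, meis1b, cebpa and drl were below the siblings by CPM and above them by this ratio, each with its highest ratio in ddx41 mutant replicate 4. For cebpa the ratio was 62.3, 55.8 and 202.3 in mutants and 86.4, 71.3, 90.3 and 96.1 in siblings, so the other mutants stayed below all siblings. For drl it was 74.9, 83.4 and 131.2 in mutants and 86.0, 85.2, 84.3 and 102.4 in siblings, with the same order of mutants against siblings.

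Of the other GATA factors, all 4 were tested, and GATA3 (ENSDARG00000016526) alone was called, with 37.3, 27.6 and 58.1 CPM in mutants and 18.9, 17.1, 16.9 and 31.1 CPM in siblings. Its fold change was 1.95 (edgeR adjusted p = 0.0292), although ddx41 mutant replicate 3 lay below sibling replicate 5. The call was lost in 5 of the 7 fits that left out 1 library, namely ddx41 mutant replicate 2 or 4 (adjusted p 0.0577 and 0.149) or sibling replicate 1, 3 or 4 (0.0745, 0.0849 and 0.0895). The median log2 fold change of these 4 genes was 0.71.

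The genes runx1 and kita were present at low levels. The haematopoietic stem cell factor runx1 had 13, 26 and 34 counts in mutants and 32, 22, 40 and 10 counts in siblings. This gave 1.08, 1.996 and 2.16 CPM in mutants and 2.22, 1.71, 3.07 and 0.714 CPM in siblings, so the mutant values lay within the sibling range. Its log2 fold change was -0.14 with a 95% interval of -1.46 to 1.19 (edgeR adjusted p = 0.911). The core-binding factor list had 4 tested genes, the partner subunit CBFB, the RUNX gene RUNX3, RUNX1T1 and CBFA2T2. Of these edgeR, DESeq2 and limma-voom called none, and none had an unadjusted p under 0.05. CBFB (ENSDARG00000040917) had 23.2, 12.97 and 23.0 CPM in mutants and 21.7, 29.8, 29.2 and 27.1 CPM in siblings. The list's median log2 fold change was -0.24, with CBFB at -0.45, RUNX3 at -0.48, RUNX1T1 at 0.11 and CBFA2T2 at -0.04. RUNX2 and runx2b did not pass the filter on low counts.

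The receptor tyrosine kinase gene kita had 1.42, 3.15 and 4.44 CPM in mutants and 3.74, 3.26, 3.91 and 1.71 CPM in siblings. Replicates 2 and 4 of the mutants were farther apart than the group means, which were 3.0 ± 1.52 CPM in mutants (SD, n = 3) and 3.15 ± 1.0 CPM in siblings (SD, n = 4). The log2 fold change was -0.06 with a 95% interval of -1.15 to 1.02 (edgeR adjusted p = 0.949). In the list of neural crest and pigment markers, cells that also use kita, 3 of 11 tested IDs were higher and 1 lower, the summed level was 37.3 to 81.2 CPM in mutants and 31.5 to 66.5 CPM in siblings, and FOXD3 was at 0 in all 7 libraries. The number higher there was 0 without ddx41 mutant replicate 3 and 1 without sibling replicate 3, and none was lower without ddx41 mutant replicate 2 or 4 or sibling replicate 1, 4 or 5. The part of such cells in the kita level was not tested.

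Downstream of the receptor, 3 of 18 tested genes of KIT ligands and signalling were lower and none higher, and the median log2 fold change was -0.19. Over all tested genes 7.69% were called lower and 8.87% higher. The kinase gene jak2a, shared with the erythropoietin pathway, was 2.08-fold lower, at 92.6 ± 16.8 CPM in mutants and 192.3 ± 16.6 CPM in siblings (edgeR adjusted p = 0.00166). CBLB (ENSDARG00000015199), a ubiquitin ligase gene that tempers receptor signals, had 5.25, 6.60 and 14.5 CPM in mutants and 35.9, 25.3, 23.8 and 37.6 CPM in siblings, a 3.47-fold fall (edgeR adjusted p = 0.00218). PIK3R1 (ENSDARG00000038524), the regulatory subunit of PI3 kinase, was also called, 1.66-fold lower. The number called lower was 5 without ddx41 mutant replicate 3. At an unadjusted p under 0.05 in the edgeR fit, 2 genes of the list were higher, and DESeq2 and limma-voom called none higher. The ligand genes kitlga and kitlgb were scarce, at up to 4.76 CPM and 0.831 CPM in any library, and the other receptor gene kitb did not pass, with 3.999, 3.99 and 1.71 CPM in mutants and 5.26, 2.48, 5.98 and 3.50 CPM in siblings.

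The myeloid regulator cebpa had 31.1, 34.9 and 54.5 CPM in mutants and 58.0, 53.8, 66.7 and 42.8 CPM in siblings. The values of ddx41 mutant replicates 2 and 3 were below all siblings, while replicate 4 lay inside the sibling range. The means were 40.1 ± 12.6 CPM in mutants (SD, n = 3) and 55.3 ± 9.90 CPM in siblings (SD, n = 4), a log2 fold change of -0.46 (SE 0.23, 95% interval -0.95 to 0.03) that did not pass (edgeR adjusted p = 0.200). Leaving out mutant replicate 4, the log2 fold change was -0.75 and the edgeR adjusted p 0.0352, within a range of 0.0352 to 0.619 over the alternatives. Of 5 tested genes in the C/EBP list 1, CEBPZ, was higher and none lower, and the median log2 fold change was -0.35. CEBPB, CEBPD, cebpg and DDIT3 had log2 fold changes of -0.76, -0.50, -0.21 and -0.35, and edgeR called none of them. CEBPZ (ENSDARG00000045857), a ribosome biogenesis factor rather than a myeloid one, rose 1.99-fold, to 54.7 ± 10.5 CPM in mutants, against 27.5 ± 0.887 CPM in siblings (edgeR adjusted p = 0.00276). CEBPB, a family member of activated myeloid cells, had 23.0, 23.6 and 51.1 CPM in mutants and 61.8, 48.5, 57.7 and 52.6 CPM in siblings, which set ddx41 mutant replicate 4 apart from the other mutants as for cebpa. It did not pass edgeR's test, but 1 C/EBP gene was called lower without ddx41 mutant replicate 4, by DESeq2 and by limma-voom, and 1 was lower at an unadjusted p under 0.05.

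Macrophage and pan-leukocyte markers were read beside cebpa, runx1 and myb. Of 21 tested IDs 8 were lower and 1, the SPI1 row above, was higher, against 7.69% lower and 8.87% higher over all tested genes. The median log2 fold change of the markers was -0.68, and no ID was at 0 in all libraries. Their summed level was 642.2, 470.0 and 883.2 CPM in mutants and 1768, 1182, 955.9 and 1075 CPM in siblings, with every mutant below every sibling. Replicate 4 was the highest mutant, as for cebpa. Among siblings the sum was highest in replicate 1 and cebpa in replicate 4. One MFAP4 row (ENSDARG00000088745) alone had 85.1, 38.6 and 80.2 CPM in mutants and 745.5, 393.2, 204.9 and 237.3 CPM in siblings. Without that row, a choice made after seeing the data, the sum of ddx41 mutant replicate 4 lay above those of sibling replicates 3 and 4. The separation of the groups by the sum therefore depended on that row. Of 3 rows named MPEG1, a macrophage perforin gene, ENSDARG00000055290 was 2.64-fold lower (edgeR adjusted p = 0.00660). The row ENSDARG00000078569 had 4.33, 4.68 and 3.94 CPM in mutants and 1.11, 2.09, 1.99 and 0.571 CPM in siblings, with every mutant above every sibling, and did not pass (edgeR adjusted p = 0.0528). The row ENSDARG00000043093 had a log2 fold change of -0.0022 and did not pass. The number of markers lower was 5 without ddx41 mutant replicate 2 or 3 or sibling replicate 1, and none was higher without ddx41 mutant replicate 4 or sibling replicate 3 or 5. Of 9 tested neutrophil IDs 3 were higher and none lower, with a summed level of 2127, 2196 and 3913 CPM in mutants and 3221, 3110, 3519 and 2012 CPM in siblings. When ddx41 mutant replicate 4 was left out 1 was higher and 1 lower, and leaving out sibling replicate 4 also gave 1 lower. At an unadjusted p under 0.05 in the edgeR fit 1 was lower, and DESeq2 and limma-voom called none lower. The part of these cells in the cebpa level was not tested.

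The TALE homeobox gene meis1b had 17.7, 14.5 and 27.3 CPM in mutants and 22.9, 31.9, 15.4 and 23.4 CPM in siblings. The groups overlapped, with ddx41 mutant replicate 4 and sibling replicate 3 on top. The log2 fold change was -0.24 (SE 0.28, 95% interval -0.84 to 0.36, edgeR adjusted p = 0.621). Among its MEIS, PBX and HOX partners, 3 of 14 tested rows were lower and 1 was higher, and the median log2 fold change was -0.37. The cofactor gene pbx1b had 18.4, 28.9 and 18.3 CPM in mutants and 88.5, 80.8, 104.1 and 76.4 CPM in siblings, a 3.997-fold fall (edgeR adjusted p = 3.37e-05). It was joined by pbx2, 2.06-fold lower, and by one of 2 rows named PKNOX1 (ENSDARG00000036542), 1.73-fold lower. The other PKNOX1 row (ENSDARG00000018765) had 35.1, 40.2 and 32.6 CPM in mutants and 22.4, 26.3, 24.5 and 26.3 CPM in siblings, with every mutant above every sibling, and did not pass (log2 fold change 0.53, edgeR adjusted p = 0.0778). HOXB4 (ENSDARG00000013533), a homeobox gene known for stem cell expansion, rose 3.90-fold, with 13.1, 7.91 and 14.0 CPM in mutants and 2.01, 2.87, 3.30 and 3.78 CPM in siblings (edgeR adjusted p = 0.00169). For pbx1b and HOXB4 the groups did not overlap, whereas the paralog meis1a, at 11.2, 3.38 and 14.1 CPM in mutants and 5.40, 7.29, 5.45 and 6.35 CPM in siblings, overlapped and did not pass. The list of neural markers, cells that also use meis1b and gata2a, had 2 of 15 tested IDs lower and none higher, and gap43 was at 0 in all libraries. Its summed level was 80.6, 96.0 and 304.0 CPM in mutants and 229.2, 154.2, 131.4 and 263.0 CPM in siblings. Among mutants this sum and meis1b were both highest in replicate 4. Among siblings the sum was highest in replicate 5 and meis1b in replicate 3. The number lower was 1 without ddx41 mutant replicate 2 or sibling replicate 1, 3 or 4; none was higher at an unadjusted p under 0.05, by DESeq2 or by limma-voom. Its part in the meis1b level was not tested.

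The zinc finger gene drl, known in zebrafish as an early mark of lateral mesoderm and blood, had 37.3, 52.0 and 35.4 CPM in mutants and 57.7, 64.2, 62.2 and 45.6 CPM in siblings. Mutant replicates 2 and 4 lay below all siblings, and the groups overlapped through ddx41 mutant replicate 3 and sibling replicate 5. The means were 41.6 ± 9.12 CPM in mutants (SD, n = 3) and 57.5 ± 8.35 CPM in siblings (SD, n = 4). The log2 fold change was -0.47 (SE 0.21, 95% interval -0.91 to -0.02), with an unadjusted p of 0.0404 and an adjusted p of 0.145 in the edgeR fit. Without ddx41 mutant replicate 3 the log2 fold change was -0.70 and the edgeR adjusted p 0.0457, within a range of 0.0457 to 0.503. None of the 3 tested drl-like genes passed edgeR, DESeq2 or limma-voom or had an unadjusted p under 0.05, and their median log2 fold change was -0.37. The nearest relative by name, drll.1, had 57.0, 74.1 and 47.1 CPM in mutants and 71.7, 99.5, 76.5 and 60.0 CPM in siblings; like drl it was highest in replicate 3 of each group, and lowest in ddx41 mutant replicate 4 and sibling replicate 5. In the RefSeq annotation of a newer assembly, GRCz12tu, the drl gene overlaps drll.1 and lrwd1, gata2a overlaps pbrm1, runx1 overlaps a miRNA gene and cebpa a long noncoding RNA gene. There meis1b overlaps 14 genes, among them the protein-coding psap, abcg2c, slc29a3, c1d and etaa1b. Reads of these genes may be shared, since neither their strands nor the use of strand in counting is given here.

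The remaining lists held genes that act with the 10 in a shared complex or stage. In the complex of SCL, LMO2 and LDB1, which binds DNA with GATA factors, 1 of 12 tested rows was lower and none higher, and the median log2 fold change was -0.47. The called gene, tcf3a, an E protein partner of SCL, was 2.02-fold lower, at 14.96 ± 3.76 CPM in mutants and 30.2 ± 5.71 CPM in siblings (edgeR adjusted p = 0.0124). At an unadjusted p under 0.05 in the edgeR fit 6 rows were lower and none higher, against 13.9% lower over all tested genes. DESeq2 and limma-voom called none higher. TAL1 (SCL) had 120.3, 144.2 and 84.5 CPM in mutants and 137.2, 148.2, 178.4 and 164.2 CPM in siblings, and LMO2 had 138.7, 145.6 and 83.4 CPM in mutants and 166.6, 182.4, 194.5 and 176.7 CPM in siblings. LMO2 was below all siblings in every mutant library and did not pass (edgeR adjusted p = 0.0855). The number called lower in the complex was 4 when ddx41 mutant replicate 3 was left out and 0 when replicate 2 was.

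Among 9 tested rows of the GFI1 and IKAROS repressors and their partners, 1 was higher and 1 lower. GFI1B (ENSDARG00000079947), an erythroid repressor, was 2.05-fold lower, at 234.8 ± 85.5 CPM in mutants and 481.3 ± 62.6 CPM in siblings (edgeR adjusted p = 0.0100). One of 2 rows named BMI1 (ENSDARG00000013076), a Polycomb gene of stem cell renewal, rose 4.29-fold, with 19.2, 23.3 and 25.8 CPM in mutants and 4.92, 6.51, 3.30 and 6.50 CPM in siblings (edgeR adjusted p = 0.000216). The other BMI1 row (ENSDARG00000006010) had a log2 fold change of 0.16 and did not pass. The list's median log2 fold change was -0.02. In the list of haemangioblast and stem cell emergence, with Notch receptors, ligands and surface markers, none of 17 tested rows was called by edgeR, while 2 were higher and 3 lower at an unadjusted p under 0.05; DESeq2 called 1 higher and 1 lower and limma-voom 1 higher. One of 2 rows named CXCR4 (ENSDARG00000057633), a chemokine receptor, had 5.17, 3.30 and 6.22 CPM in mutants and 2.35, 0.465, 1.84 and 1.71 CPM in siblings and missed the threshold (edgeR adjusted p = 0.0518). The other CXCR4 row (ENSDARG00000041959) had the opposite sign, with 4.17, 1.77 and 7.997 CPM in mutants and 8.93, 7.05, 10.4 and 10.99 CPM in siblings. It did not pass either (log2 fold change -0.999, edgeR adjusted p = 0.132). That list had a median log2 fold change of -0.15, and 3 rows were lower without ddx41 mutant replicate 4 and 1 without sibling replicate 3. Over the 101 tested rows of all 11 lists, 7 were higher and 8 lower, against 8.87% higher and 7.69% lower over all tested genes, so the count shows nothing particular to the partner genes. Without ddx41 mutant replicate 4 or sibling replicate 3, 4 were higher, and 13 were lower without ddx41 mutant replicate 3.

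**Figure D3:**
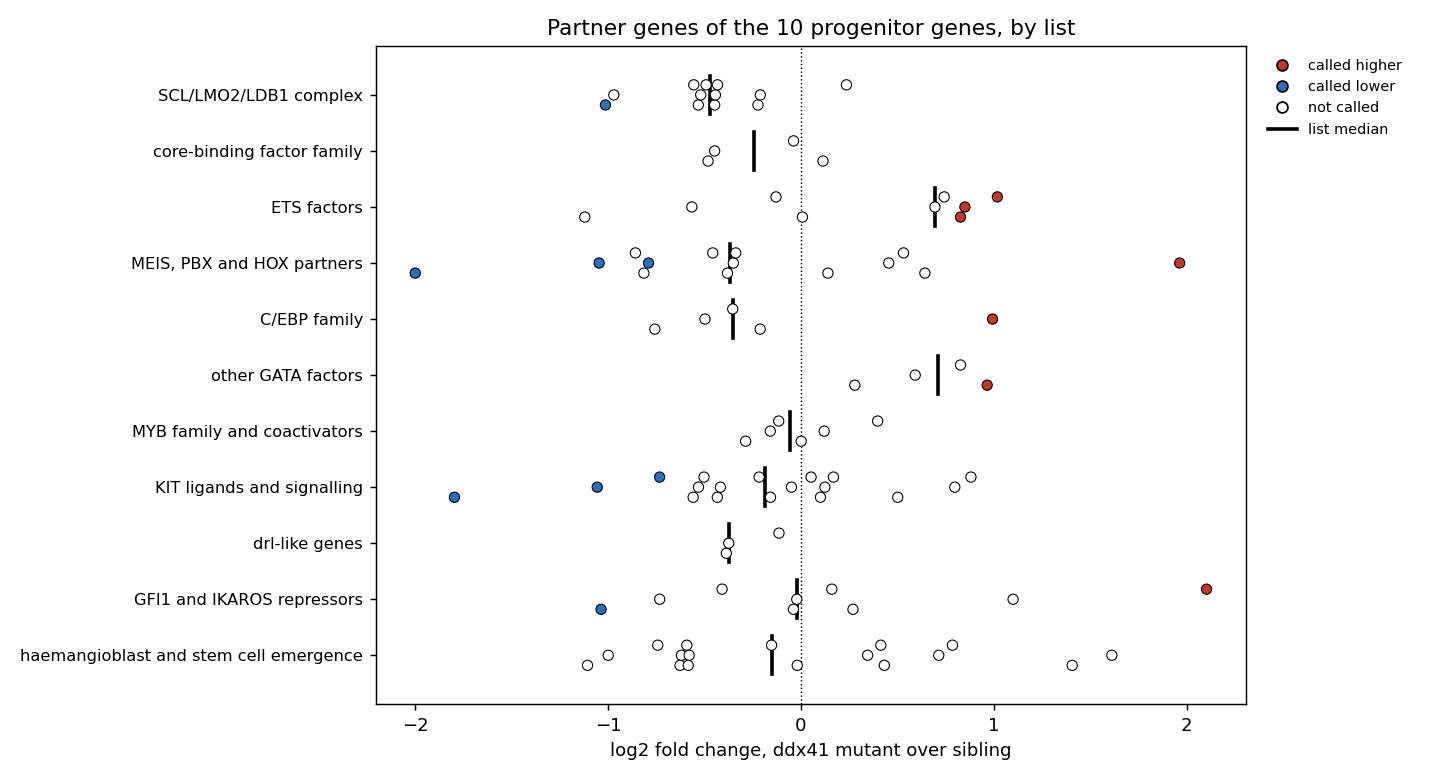
Log2 fold change (ddx41 mutant over sibling, x axis) of each tested partner gene in 11 lists (rows); red points were called higher, blue lower and white not called, and black bars mark list medians. The medians of the ETS factors and other GATA factors sit at 0.69 and 0.71, and that of the SCL complex at -0.47. All points of the other GATA factors lie above 0 and all of the drl-like genes below it, most of them not called.

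The 10 genes did not share one pattern over the libraries. Likeness was measured as the root mean square difference between 2 genes' log2 CPM, each centred on its own mean over the 7 libraries, as a description without a test. The closest pairs were myb with gata2a at 0.272 and kita with runx1 at 0.280, followed by myb with fli1a at 0.344 and cebpa with drl at 0.347. The pairs of myb with gata2a and fli1a had mutant means above the siblings, and cebpa and drl had means below them. The pair of kita and runx1 was low in ddx41 mutant replicate 2 and sibling replicate 5. The farthest pair was hhex with gata2b at 2.13. No library was highest for more than 2 of the 10 genes, and ddx41 mutant replicate 2 and sibling replicate 5 were each lowest for 3.

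Outside the 10 genes, the gene nearest to each was sought among 10439 rows with a symbol and a mean of at least 5 CPM. For myb it was VPS29, of the retromer, at 0.0703, for cebpa the small GTPase gene RAB27A at 0.0610, and for drl the nuclear pore gene nup153 at 0.0642. The mitochondrial import gene tomm20a was nearest to fli1a at 0.0977, and ERG, named here after its values were seen, followed at rank 3 with 0.154. The gene pygo2 was nearest to meis1b at 0.0922, si:ch211-207i20.2 to gata2a at 0.0956, DPM3 to kita at 0.164 and wiza to runx1 at 0.179. For hhex the nearest was RRN3, a factor of RNA polymerase I, at 0.347, and for gata2b it was CYP1A1 at 0.624. The median difference from all candidates was 1.28 for hhex, 1.27 for gata2b and 0.447 for myb.

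**Figure D4:**
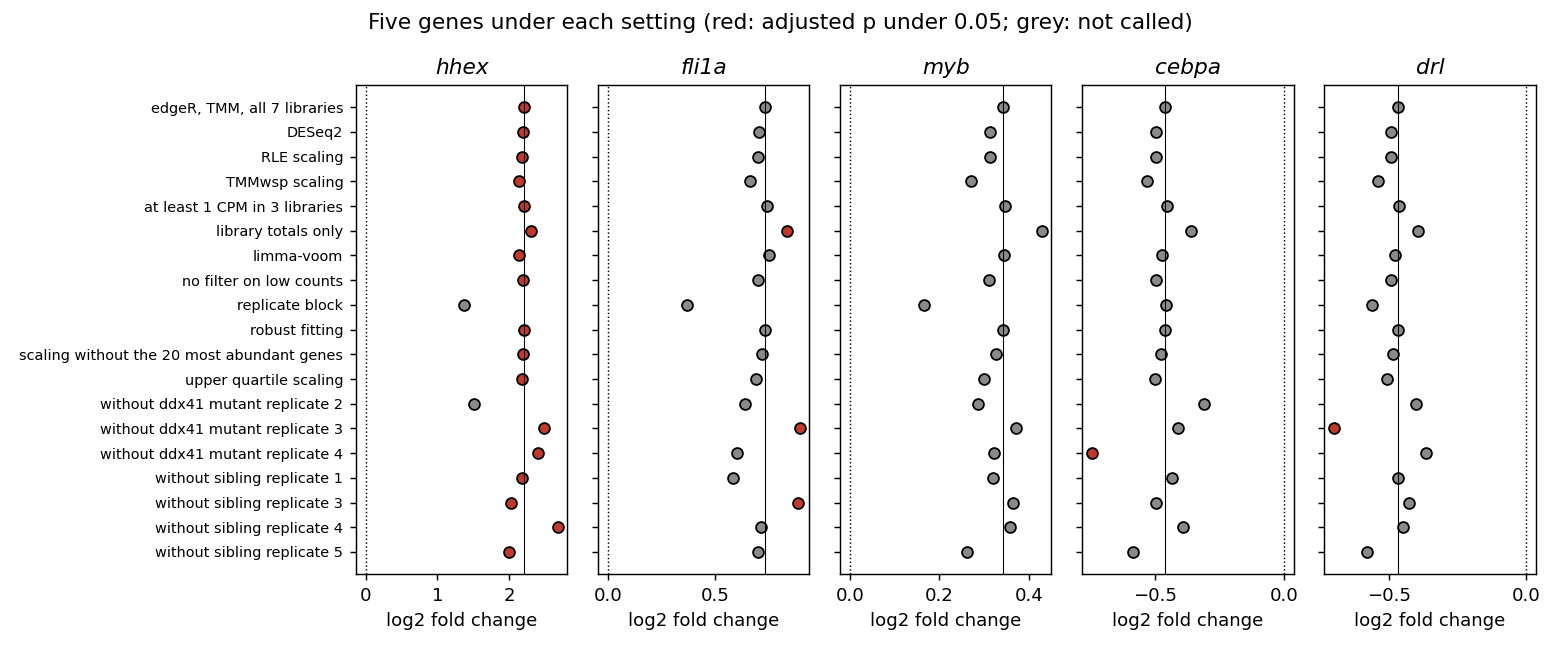
Log2 fold change (ddx41 mutant over sibling, x axes differ) of hhex, fli1a, myb, cebpa and drl under the edgeR fit and 18 alternatives (rows); red points had an adjusted p under 0.05 and grey points did not. The 5 genes keep their direction in every row, and hhex is grey without ddx41 mutant replicate 2 and with the replicate block.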

How the data were processed

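Per the submitters' processing notes, the authors used STAR 2.4.2a, Cufflinks 2.2.1, Picard, DESeq2 and Trim Galore with the GRCz10 build. The role of each, the counting program, the use of strand and the annotation are not given in the sources used for this text. The authors deposited 1 table of raw counts per gene for 7 libraries, 3 of ddx41 mutants and 4 of siblings, with totals of 11814324 to 14363255 counts. Of its 32105 Ensembl IDs, 26269 carried a symbol in the reference tables and 5836 did not. The ddx41 transcript itself is not analysed here.

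The counts were scaled by TMM, filtered (filterByExpr by group, minimum count 10, minimum total 15) and fitted with edgeR 4.0.16 in R 4.3.3 by its quasi-likelihood F-test, with Benjamini-Hochberg adjustment over 18565 genes at 0.05. The standard error was taken from the F statistic. DESeq2 1.42.0 and limma 3.58.1 (voom) were alternatives. On simulated counts for these 18565 genes the fit recovered 37% of 100 genes changed 2-fold and 89% of 100 changed 4-fold. All changed genes had a mean of at least 5 CPM, and every other gene was left unchanged. The simulation gave 135 calls, 6.67% of them false, against 3073 calls in the data. With so few changed genes the adjustment is stricter, so the recovery shares do not carry over to this comparison. Recovery was not worked out separately for scarce genes. The recovery shares therefore give no power for kita, runx1 or gata2b. The genes and lists were chosen with earlier results of these data known. Named were the 10 genes, of each list the 2 called genes with the smallest p (or the 1 with the smallest p where none was called), and the nearest gene in pattern to each; TAL1, LMO2, elf1, ERG, CEBPB, meis1a, pbx2, PKNOX1, spi1a, the other rows of BMI1 and CXCR4, PIK3R1, the KIT ligands, kitb and the marker genes were named after their values were seen. The genes RUNX3, RUNX1T1, CBFA2T2, CEBPD, cebpg and DDIT3 were also named after their values were seen. Gene lengths were not used, so statements that a gene was scarce or counted more deeply than another refer to counts or CPM alone. Poisson intervals cover counting error only.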

Additional observations from a re-analysis of the deposited data

How the results depend on the processing

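Of 18 alternatives, 7 left out 1 library each. The log2 fold change of hhex ranged from 1.37 to 2.68, and it was called in 16 of them. No named gene that was called changed direction; kita, runx1 and gata2b, never called, had log2 fold changes on both sides of 0 (-0.46 to 0.26, -0.43 to 0.15 and -1.18 to 0.47). Among the 10 genes, 2 were higher with library totals only (hhex and fli1a, with an edgeR adjusted p of 0.0413 for fli1a), and leaving out 1 library gave 0 to 2 higher and 0 to 1 lower. Leaving out 1 library gave 1014 to 1471 higher and 874 to 1487 lower among all genes, the lowest counts being without ddx41 mutant replicate 2, against 1646 and 1427 with all libraries. It gave 4 to 7 higher and 6 to 13 lower among the partner genes, and DESeq2 called 13 of these lower. Library totals only moved the median log2 fold change of all genes to 0.12, from which changes should then be read; 61.2% of its calls were higher, against 53.6% with TMM scaling and 46.5% with TMMwsp scaling.

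Replicate numbers 3 and 4 occur in both groups. The deviations of same-numbered libraries from their group means had correlations of -0.016 and -0.16. For libraries of different numbers these correlations ran from -0.143 to 0.236. So few values cannot show whether same-numbered libraries were paired, and the labels give no clutch. With the replicate number as a block, only replicates 3 and 4 bear on the group difference, since every other number occurs in a single group. In that fit 0 of the 10 genes were higher and 0 lower (hhex had a log2 fold change of 1.37, edgeR adjusted p = 0.258). Of all genes 592 were higher and 431 lower, and 2 partner genes were higher and 4 lower. This fit gave the upper end of the adjusted p ranges of hhex, fli1a, cebpa and drl. Summing IDs of one symbol was not run, since each of the 10 genes has 1 ID. The genes gata2b, runx1 and kita had at most 70 counts in any library; for gata2b the spread between libraries was 82.1% in mutants and 89.4% in siblings, above the 26.4% and 22.0% that counting alone would give.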

Other observations

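Markers of 3 further cell types were read in the same libraries. Of 11 tested thrombocyte rows 1 was higher and 2 were lower in mutants, with a summed level of 365.1 to 533.1 CPM in mutants and 589.7 to 677.1 CPM in siblings; of 2 rows named THBS1, ENSDARG00000103775 was at 0 in all libraries, and ENSDARG00000010785 had 5.83 to 19.6 CPM in mutants and 7.05 to 26.0 CPM in siblings. None was higher without ddx41 mutant replicate 2 or 4 or sibling replicate 1, 3 or 4, and 1 was lower in each fit that left out 1 library other than ddx41 mutant replicate 4. Of 12 tested skeletal muscle rows 2 were higher and 6 lower, with a sum of 98.6 to 119.3 CPM in mutants and 77.2 to 143.3 CPM in siblings. Leaving out mutant replicate 2 gave 3 lower, and 1 was higher with ddx41 mutant replicate 2 or 4 or sibling replicate 1 or 3 left out. Of 11 tested epidermis rows 2 were higher and none lower (none also at an unadjusted p under 0.05 in the edgeR fit, by DESeq2 and by limma-voom), with a sum of 838.4 to 1535 CPM in mutants and 338.8 to 1196 CPM in siblings, and 4 were higher with ddx41 mutant replicate 3 left out, and 1 with ddx41 mutant replicate 2 or sibling replicate 3 or 4 left out. Their part in the levels of the 10 genes was not tested.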
